A study of Mus musculus with 27 samples.

Results

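Nicotinamide adenine dinucleotide (NAD) synthesis and the sirtuins were followed through 10 genes, listed by name for their roles: Nampt, Nmnat1, Nmnat3, Nadsyn1, Nmrk1, Nmrk2, Nnmt, Sirt1, Sirt3 and Sirt5. They had 19 of the 45281 probes on the array and were 10 of 19057 named genes. RNA was taken from the liver, the epididymal white adipose tissue (WAT) and the gastrocnemius muscle of male C57BL/6J mice that arrived at 4 weeks of age and were then kept for 16 weeks on a normal diet (ND), on a high-fat diet with 20% fat and 1% cholesterol (HFD), or on that HFD with 0.05% by weight of ursolic acid (UR), a plant triterpenoid. The mice of all 3 groups were of 1 inbred strain and 1 sex, ate a semi-purified diet before the experiment and were fasted before they were killed. The sources used here do not give the time of day at which each group was killed. RNA was pooled into 3 sets per diet and tissue, so that each of the 27 arrays is a pool and n = 3 pools per group throughout. The labels give 10 mice per diet, while the study's methods give larger groups for the HFD and UR. Which mice entered a pool is not given, so that errors and p-values cover the variation of pools, not that of single mice.

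NAD is built in mammals by salvage of nicotinamide, by phosphorylation of nicotinamide riboside, from nicotinic acid and from tryptophan. Nampt, the rate-limiting enzyme of salvage, makes nicotinamide mononucleotide, and the enzymes Nmnat1 (nucleus) and Nmnat3 (mitochondria) turn it into NAD. Sirtuins are deacylases that split NAD with each cycle, while Nnmt methylates nicotinamide and so removes it from salvage. In the liver, fat and muscle these enzymes are known for their ties to fasting, feeding and the circadian clock, whose activator Clock acts on Nampt.

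Nampt changed in all 3 tissues, and Nmrk2 was detected in muscle alone. Sirt1 fell with the HFD in all 3 tissues, though its calls depended on the processing, as given below. For these reasons the sequences around the RefSeq transcript starts of these 3 genes are shown. Each runs from 250 bases before to 50 after the start in GRCm38.p6, 5′ to 3′ on the gene's strand, and 9 of the 10 genes matched the promoter table. Capitals mark matches, on either strand, to CACGTG (the E-box bound by Clock and its partner Arntl), AGGTCA (the half-site of nuclear receptors such as Nr1d1) and TATAAA (the TATA box). Nampt lies at chr12:32820085-32820384 on the plus strand, Sirt1 at chr10:63338986-63339285 on the minus strand and Nmrk2 at chr10:81201988-81202287 on the minus strand.
Nampt: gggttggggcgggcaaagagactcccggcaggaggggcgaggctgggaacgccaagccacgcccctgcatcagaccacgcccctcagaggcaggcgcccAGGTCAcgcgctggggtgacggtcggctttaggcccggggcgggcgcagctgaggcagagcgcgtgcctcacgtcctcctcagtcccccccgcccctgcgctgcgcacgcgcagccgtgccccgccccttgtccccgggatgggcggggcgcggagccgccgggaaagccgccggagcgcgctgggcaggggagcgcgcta
Sirt1: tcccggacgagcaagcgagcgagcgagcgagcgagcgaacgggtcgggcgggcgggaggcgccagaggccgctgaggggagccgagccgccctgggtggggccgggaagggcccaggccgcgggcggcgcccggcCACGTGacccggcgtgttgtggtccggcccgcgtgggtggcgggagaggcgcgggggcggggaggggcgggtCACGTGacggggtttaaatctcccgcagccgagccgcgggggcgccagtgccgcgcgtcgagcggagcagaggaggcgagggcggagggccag
Nmrk2: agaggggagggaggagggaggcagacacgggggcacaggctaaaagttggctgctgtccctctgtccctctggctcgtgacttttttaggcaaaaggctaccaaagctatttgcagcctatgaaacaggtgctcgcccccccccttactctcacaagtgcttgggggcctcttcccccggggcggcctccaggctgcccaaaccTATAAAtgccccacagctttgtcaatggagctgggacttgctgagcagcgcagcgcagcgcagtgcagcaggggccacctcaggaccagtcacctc
The Sirt1 window held CACGTG at 2 places, starting at -115 and -43 from the transcript start, whereas no window of the other 8 matched genes held it. CACGTG occurred in 7.15% of the 32851 promoter windows of this length, and at 2 or more places in 0.594%. AGGTCA was found once in the Nampt window, at -151, once in that of Nmnat3, at 24, and at 2 places in that of Sirt5, at -196 and -164. All windows held it in 16.3% of cases, and at 2 or more places in 1.81%. In addition, the Nmrk2 window held TATAAA once, at -46, a match found in 13.6%. These matches describe letters in a window and not bound sites.

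The share of probes detected (detection p under 0.05) per array lay between 42.2% and 44.4% in WAT. Liver arrays had separate ranges by diet, of 34.2% to 35.0% (ND), 36.5% to 37.2% (HFD) and 38.7% to 40.0% (UR), and in muscle the UR arrays (37.6% to 38.1%) stood above those of the HFD (35.5% to 35.8%) and ND (35.8% to 36.7%), so that detection and diet cannot be told apart in these tissues. The summed raw signal of the liver arrays was 40602071 to 45514171 with UR and 33610124 to 36807245 with the other diets. Of 5 hepatocyte, 5 adipocyte and 6 muscle fibre markers on the array, 4, 5 and at least 5 were detected on all arrays of a diet in the liver, WAT and muscle, respectively. Signals were quantile-normalized within a tissue. With arrays scaled to a common median instead, the median log2 change of all kept probes moved from -0.070 to 0.098 for UR against HFD and from -0.061 to 0.14 for UR against ND in the liver, and from 0.0057 to -0.11 for HFD against ND in muscle. The share of changed probes that were higher moved with it, from 39.6% to 73.8%, from 41.6% to 76.5% and from 46.2% to 3.42%. The other splits that moved by over 10 percentage points were 53.5% to 69.6% for HFD against ND in the liver, 45.3% to 63.1% for UR against HFD in WAT, and 53.7% to 83.3% and 53.4% to 17.1% for UR against HFD and against ND in muscle.

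A probe was kept in a tissue if it was detected on all 3 arrays of at least 1 diet, which held for 14 probes of 8 genes in the liver, 13 of 8 in WAT and 14 of 9 in muscle. Nmnat3 and Nmrk2 had no kept probe in the liver, Nmnat1 and Nmrk2 none in WAT and Nadsyn1 none in muscle. A probe is said to rise or fall only where its adjusted p was under 0.05 (limma, Benjamini-Hochberg over all kept probes of the tissue). With UR against the HFD in the liver, 7 of the 14 probes rose and 4 fell, where 55.1% of all kept probes changed (21.9% up, 33.3% down), and the median log2 change was 0.16 against -0.070 over all probes. In WAT 1 of 13 rose and 2 fell against a background of 7.54% (3.41% up, 4.13% down), with medians of -0.044 and 0.0046. In muscle 6 of 14 rose and 0 fell against 22% (11.8% up, 10.2% down), with medians of 0.096 and -0.018. With the HFD against the ND, 1 rose and 3 fell in the liver (background 24.9%, with 13.3% up and 11.6% down), 0 rose and 4 fell in WAT (38.1%, with 17.4% and 20.7%), and 1 rose and 3 fell in muscle (13%, with 6.02% and 7.02%). With UR against the ND, 7 rose and 5 fell in the liver (60.1%, with 25% up and 35.1% down), 1 rose and 7 fell in WAT (44.1%, with 19.9% and 24.2%), and 5 rose and 1 fell in muscle (15.6%, with 8.31% and 7.25%). The groups did not overlap, in either direction, for 11 probes in the liver (64.2% of all kept probes), 5 in WAT (33.8%) and 6 in muscle (40.8%) with UR against the HFD, for 7 (39.6%), 7 (48.1%) and 6 (30.7%) with the HFD against the ND, and for 12 (65.1%), 9 (52.5%) and 7 (36.1%) with UR against the ND. The 3 comparisons of a tissue share their arrays, so their counts are not independent. Because a probe could be kept through the diet in which it was high, these counts describe the kept probes and not all 19. With rank products, the test named in the study's methods, 3, 1 and 4 probes passed for UR against the HFD, the HFD against the ND and UR against the ND in the liver, 0, 0 and 0 in WAT, and 3, 2 and 3 in muscle. For UR against the HFD, this test ended the liver calls of Nmnat1, Nmrk1, Sirt3 and Nadsyn1 (ILMN_2592767 and ILMN_1223384). It also ended those of Nampt ILMN_1232209, Nnmt ILMN_2544305 and Sirt5 ILMN_2707079. In muscle the calls of Nmnat3 ILMN_1223343, Nampt ILMN_1232209 and Nmrk2 ILMN_1244715 were lost in that comparison.

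**Figure D1:**
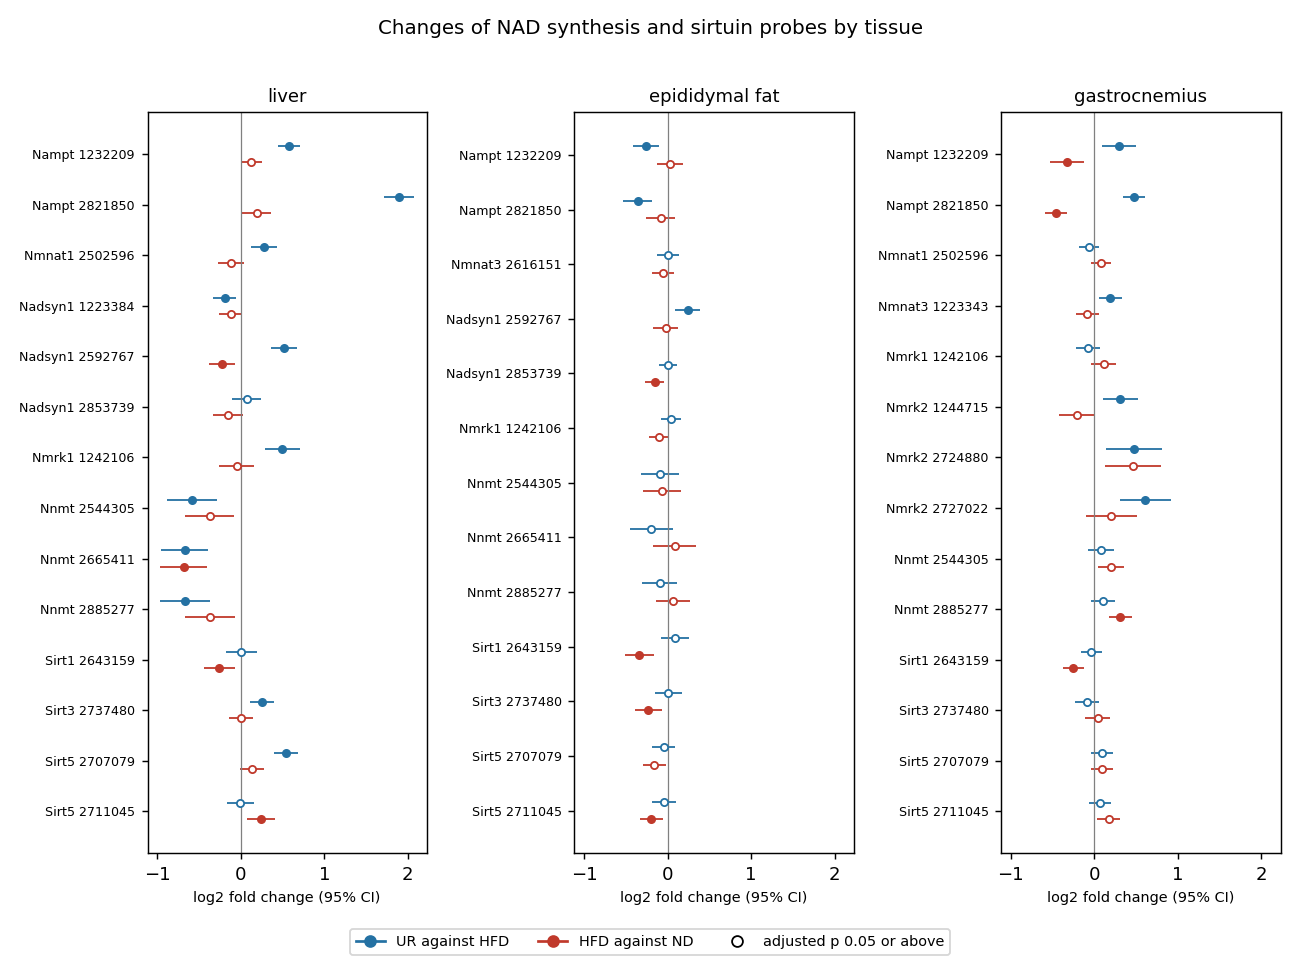
Log2 fold change of each kept probe (rows, gene and probe number) with its 95% confidence interval in the liver, epididymal fat and gastrocnemius, for UR against the HFD (blue) and the HFD against the ND (red), with filled points for an adjusted p under 0.05. The bright Nampt probe in the liver stands at 1.90 for UR against the HFD, while no other interval reaches beyond 1 on either side.

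Nampt, the rate-limiting enzyme of salvage, rose with UR in the liver, fell with UR in WAT, and in muscle fell with the HFD and rose with UR. In the liver its brighter probe, ILMN_2821850, gave log2 signals of 7.57, 7.55 and 7.49 with the ND, 7.80, 7.64 and 7.74 with the HFD and 9.49, 9.82 and 9.57 with UR. All UR pools stood above all other pools, and the ND pools were not above the detection limit. UR against the HFD was 1.90 on the log2 scale (standard error 0.083, adjusted p = 2.22e-09), or 3.72-fold. Against the ND the fold was at least 4.02, taken against the lowest detected signal since the ND pools were below it, as are all bounds given here (log2 change 2.09, adjusted p = 9.87e-10). The HFD itself gave 0.19 (standard error 0.083, adjusted p = 0.116), which passed the test only with neqc background correction (0.50). The dimmer probe, ILMN_1232209, was detected with UR alone and rose by 0.58 (standard error 0.059, adjusted p = 3.55e-06), at least 1.14-fold. It was kept in the liver through UR alone, so this p-value is not independent of the filter. The summed level of 4 macrophage markers, cells that also express Nampt, lay at 1489 to 1578 (ND), 1957 to 2145 (HFD) and 3415 to 3704 (UR), with 3 of the 4 detected on every array and 1 on none. Of these, Mpeg1 rose by 1.40 and Adgre1 by 0.40 with UR against the HFD, while Cd14 fell by 0.54. Both kept endothelial markers, Pecam1 and Cdh5, fell, by 0.58 and 0.36 (sums of 3 markers of 1231 to 1390 (ND), 1461 to 1665 (HFD) and 1152 to 1218 (UR), 1 detected on no array). Of 4 kept hepatocyte markers Cps1 and Alb fell by 0.68 and 0.57 and Ttr rose by 0.32. The part of these cell types in the liver results was not tested. In tissue RNA, fewer cells of a type and less RNA per cell cannot be told apart.

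In WAT the same probe gave 9.67, 9.77 and 9.59 with the ND, 9.47, 9.56 and 9.75 with the HFD and 9.23, 9.18 and 9.30 with UR, so that every UR pool lay below every other pool. It fell by 0.36 with UR against the HFD (standard error 0.079, adjusted p = 0.0193) and by 0.44 against the ND (standard error 0.079, adjusted p = 0.000569), whereas the HFD gave -0.084 (adjusted p = 0.438). The dimmer probe fell by 0.26 (adjusted p = 0.0456) and 0.22 (adjusted p = 0.0208). Summed mesothelial markers (4 genes) also moved with UR in WAT, from 2016 to 2665 with the HFD to 928 to 1050, with 2 of the 4 detected on all UR arrays and 2 on none, and their part was not tested. The call of the brighter probe against the HFD was lost without HFD pools 2 or 3 or UR pools 1 or 2 (-0.38 to -0.28), that of the dimmer one without HFD pools 1, 2 or 3 or UR pools 1, 2 or 3 (-0.28 to -0.22). Against the ND the brighter probe kept its call without any 1 pool, and the dimmer lost it without ND pool 2 or UR pool 2 (-0.19 to -0.14). Median scaling also ended the call of the dimmer probe against the HFD (-0.235). Rank products ended the calls of the brighter and dimmer probes against the HFD (adjusted p = 0.0764 and 0.258) and against the ND (0.260 and 0.812).

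In muscle the brighter probe gave 9.98, 10.01 and 10.11 with the ND, 9.45, 9.64 and 9.62 with the HFD and 10.05, 10.05 and 10.03 with UR, which put the HFD pools below all others. It fell by 0.46 with the HFD (standard error 0.062, adjusted p = 0.000499) and rose by 0.47 with UR against the HFD (standard error 0.062, adjusted p = 0.000220), 2 comparisons that share the HFD arrays. UR against the ND was 0.013 (95% confidence interval -0.12 to 0.15). The dimmer probe fell by 0.33 (adjusted p = 0.0342) and rose by 0.30 (adjusted p = 0.0369). Its fall was lost without ND pools 2 or 3 or HFD pools 1, 2 or 3 (-0.36 to -0.20) and its rise without HFD pools 1, 2 or 3 or UR pools 2 or 3 (0.27 to 0.33). All 4 fibroblast markers rose with UR against the HFD in muscle as well (median log2 change 0.50), with sums of 14455 to 15840 (ND), 12538 to 13579 (HFD) and 15977 to 17201 (UR) and all 4 detected on every array. Their part in the UR results of Nampt, Nmnat3 and Nmrk2 in muscle was not tested.

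The UR effect on Nampt differed between all 3 pairs of tissues when the difference itself was tested in 1 model over the 27 arrays. For the brighter probe it was larger in the liver than in WAT by 2.23 (standard error 0.11, adjusted p = 4.17e-14) and than in muscle by 1.40 (standard error 0.11, adjusted p = 2.50e-10), and lower in WAT than in muscle, -0.84 (standard error 0.11, adjusted p = 1.03e-05). The HFD effect differed as well, by 0.31 (standard error 0.11, adjusted p = 0.0411) for the liver less WAT, 0.69 (standard error 0.11, adjusted p = 7.37e-05) for the liver less muscle and 0.39 (standard error 0.11, adjusted p = 0.00971) for WAT less muscle. The liver was not above the detection limit with the ND on this probe, so its HFD effect is taken against background signal. The first of these HFD differences was lost without liver ND pools 2 or 3, liver HFD pools 1 or 3, WAT ND pools 1 or 2 or WAT HFD pools 1 or 2 (0.24 to 0.31). On the dimmer probe, not detected in the liver with the ND or HFD, it was 0.10 (adjusted p = 0.563) and did not pass. That probe gave HFD differences of 0.49 (adjusted p = 0.00391) for the liver less muscle and 0.39 (adjusted p = 0.0156) for WAT less muscle. Its UR differences were 0.83, 0.31 and -0.53 (adjusted p = 2.07e-06, 0.0397 and 0.00287), the second lost with median scaling (0.258). Of the probes kept in both tissues of a pair, the UR effect differed for 7 of 12 (all probes 48.4%), 8 of 10 (42%) and 2 of 9 (20.3%) for the liver less WAT, the liver less muscle and WAT less muscle, and the HFD effect for 4 (29.2%), 4 (25.5%) and 5 (30.1%).

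**Figure D2:**
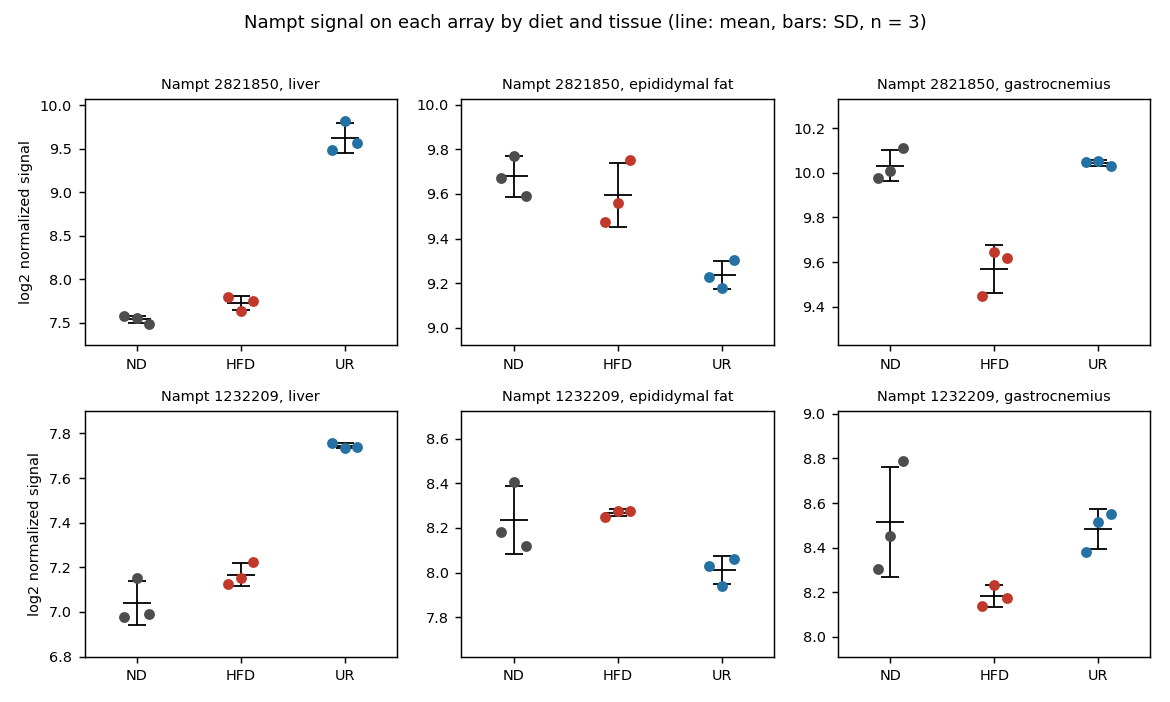
Log2 normalized signal of the 2 Nampt probes (rows) on each array by diet in the liver, epididymal fat and gastrocnemius, with the mean and SD of 3 pools and a separate vertical scale per panel. The UR pools are the highest in the liver (9.49 to 9.82 on the brighter probe) and the lowest in epididymal fat (9.18 to 9.30), and the HFD pools are the lowest in gastrocnemius (9.45 to 9.64).

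Of the enzymes that finish NAD, Nmnat1 and 1 probe of Nadsyn1 rose with UR in the liver, and Nmnat3 rose with UR in muscle. Nmnat1, the nuclear form that completes NAD from its mononucleotide, was detected in the liver with UR alone, where its probe ILMN_2502596 gave 7.49, 7.44 and 7.60 with the ND, 7.52, 7.32 and 7.34 with the HFD and 7.61, 7.62 and 7.79 with UR. All UR pools lay above all others, with ND pool 3 closest to them. It rose by 0.28 against the HFD (standard error 0.073, adjusted p = 0.00622), at least 1.08-fold, and against the ND the change was 0.16 (adjusted p = 0.0726), which passed the test without ND pool 3 (0.21) and with median scaling (0.193). The probe was kept in the liver through UR alone, so these p-values are not independent of the filter. The rise against the HFD lost its call with rank products (adjusted p = 0.664). In muscle Nmnat1 was detected on every array at 7.39 to 7.56, with -0.063 for UR against the HFD (adjusted p = 0.429). Its UR effect differed between the liver and muscle by 0.41 (standard error 0.10, adjusted p = 0.00171), where the liver probe was kept through UR alone and its HFD pools were at background.

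Nmnat3, the mitochondrial form, was kept on 1 probe in WAT, ILMN_2616151, which was detected on all ND arrays, on no HFD array and on 1 UR array, and whose 3 diets differed by at most 0.054 in mean log2 signal. In muscle the other probe, ILMN_1223343, was detected on all arrays and gave 7.77, 7.62 and 7.67 with the ND, 7.65, 7.54 and 7.62 with the HFD and 7.68, 7.80 and 7.89 with UR. It rose by 0.19 with UR against the HFD (standard error 0.065, adjusted p = 0.0481), a call lost without ND pools 2 or 3, HFD pools 1, 2 or 3 or UR pools 2 or 3 (0.14 to 0.22) and without the detection filter. The UR pools overlapped the ND pools. ILMN_2616151 was not kept in muscle, with 2, 2 and 0 arrays detected, and gave 7.42, 7.46 and 7.34 (ND), 7.46, 7.23 and 7.43 (HFD) and 7.21, 7.16 and 7.31 (UR), which overlap.

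Nadsyn1 encodes NAD synthetase, which completes the routes from tryptophan and nicotinic acid, and its 3 probes disagreed in the liver. ILMN_2592767 gave 7.98, 8.21 and 8.02 with the ND, 7.84, 7.83 and 7.87 with the HFD and 8.28, 8.34 and 8.46 with UR, and rose by 0.51 with UR against the HFD (standard error 0.072, adjusted p = 5.74e-05). ILMN_1223384 gave 8.03, 8.21 and 8.08 with the ND, 7.98, 7.99 and 7.99 with the HFD and 7.72, 7.82 and 7.85 with UR, and fell by 0.19 (standard error 0.064, adjusted p = 0.0214), with every UR pool below every HFD pool. The third probe, ILMN_2853739, gave 0.072 (adjusted p = 0.470). Against the ND the first probe rose by 0.29 and the second fell by 0.31 (adjusted p = 0.00340 and 0.000985). Of the 3566 genes with several kept probes in the liver, 15.9% had 1 probe that rose and another that fell for UR against the HFD and 0.393% for the HFD against the ND, and Nadsyn1 was 1 of the 566 genes of the first kind. Nmnat1, Nmrk1, Sirt1 and Sirt3 had 1 probe each on the array, so that for them probes could not be compared. The fall of Nadsyn1 ILMN_1223384 was lost without HFD pools 2 or 3 or UR pool 1 (-0.19 to -0.15) and with median scaling. Rank products ended the UR calls of the first and second probes, against the HFD and against the ND.

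With the HFD against the ND, Nadsyn1 fell by 0.22 in the liver on ILMN_2592767 (standard error 0.072, adjusted p = 0.0375), a call lost without ND pool 2, HFD pools 1, 2 or 3 or UR pool 2 (-0.24 to -0.15) and with median scaling (-0.155). In WAT the same probe gave 8.05, 7.99 and 8.06 with the ND, 7.92, 8.16 and 7.95 with the HFD and 8.32, 8.23 and 8.20 with UR. It rose by 0.24 against the HFD (adjusted p = 0.0491), lost without ND pools 1 or 3, HFD pools 1 or 3 or UR pools 1, 2 or 3 (0.19 to 0.26), and by 0.22 against the ND (adjusted p = 0.0198), lost without ND pool 2 or UR pool 1 (0.18 to 0.20). The probe ILMN_2853739 was detected with the ND alone in WAT and kept through it, so its p-values there are not independent of the filter. It fell by 0.16 with the HFD, at least 1.05-fold, and by 0.15 with UR against the ND (adjusted p = 0.0317 and 0.0319). Both calls were lost without the detection filter (adjusted p = 0.0775 and 0.0764). The HFD call was also lost without ND pools 2 or 3 or HFD pools 1 or 3 (-0.16 to -0.12). The UR call was also lost without ND pools 2 or 3 or UR pools 1 or 3 (-0.16 to -0.12). The UR effect on the first probe was larger in the liver than in WAT by 0.35 (standard error 0.092, adjusted p = 0.00264).

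Nmrk1, the widely expressed kinase of nicotinamide riboside, rose with UR in the liver and passed no test in WAT or muscle. Its 1 probe, ILMN_1242106, gave 9.81, 9.80 and 9.78 with the ND, 9.56, 9.67 and 10.02 with the HFD and 10.24, 10.18 and 10.31 with UR in the liver, where all UR pools lay above all others. It rose by 0.50 against the HFD (standard error 0.10, adjusted p = 0.000821), or 1.41-fold, and by 0.45 against the ND (standard error 0.10, adjusted p = 0.00139). Both calls were lost with rank products (adjusted p = 0.344 and 0.471). UR against the HFD was 0.039 in WAT (95% confidence interval -0.080 to 0.16) and -0.076 in muscle (-0.22 to 0.073). The liver effect was larger than that in WAT by 0.44 (standard error 0.12, adjusted p = 0.00390) and than that in muscle by 0.57 (standard error 0.12, adjusted p = 0.000447).

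Nmrk2, the muscle kinase of nicotinamide riboside (also called Itgb1bp3), was detected on every array of muscle and on no array of the liver or WAT, and its 3 probes rose with UR against the HFD. ILMN_2724880 gave 10.77, 9.91 and 10.34 with the ND, 10.65, 11.03 and 10.72 with the HFD and 11.11, 11.43 and 11.29 with UR. ILMN_2727022 gave 9.26, 8.48 and 9.05 with the ND, 9.03, 9.32 and 9.06 with the HFD and 9.60, 9.83 and 9.80 with UR. On both, all UR pools were above all others and ND pool 2 was the lowest array. On the third probe, ILMN_1244715, ND pool 2 was instead above the other ND and HFD pools: 9.83, 10.11 and 9.75 with the ND, 9.68, 9.65 and 9.74 with the HFD and 10.15, 9.75 and 10.10 with UR. The rises against the HFD were 0.48 (standard error 0.16, adjusted p = 0.0427), 0.61 (standard error 0.14, adjusted p = 0.00928) and 0.31 (standard error 0.10, adjusted p = 0.0381). Against the ND the first 2 rose by 0.94 and 0.81 (adjusted p = 0.00145 and 0.00208), and the third gave 0.10 (adjusted p = 0.515). The HFD against the ND gave 0.46, 0.20 and -0.21, none past the test. In that comparison ILMN_2724880 passed it without ND pool 1 (0.68) and also passed with rank products (adjusted p = 0.0142). ILMN_1244715 passed with median scaling (-0.402). The UR call of ILMN_2724880 was lost without ND pool 3, HFD pools 1 or 3 or UR pools 2 or 3 (0.40 to 0.48) and that of ILMN_1244715 without HFD pools 1, 2 or 3 or UR pools 1 or 3 (0.24 to 0.34), whereas ILMN_2727022 kept its call without any 1 pool.

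**Figure D3:**
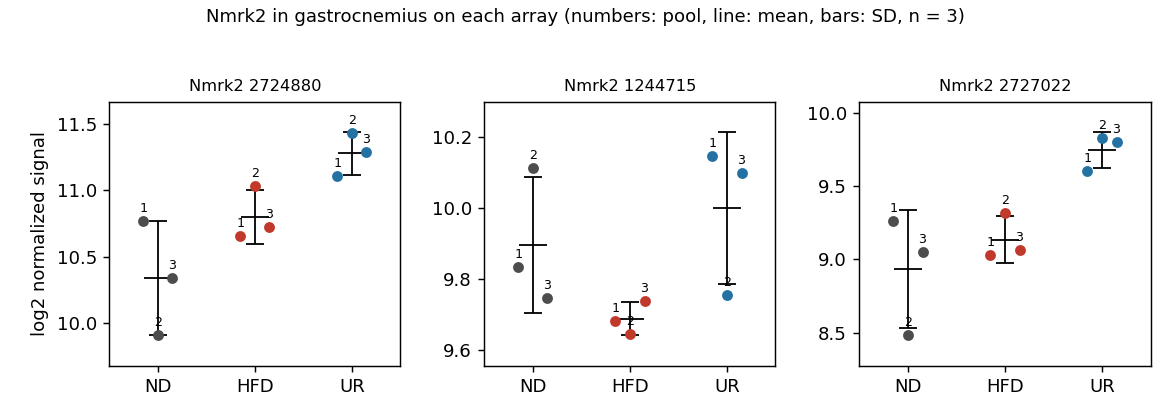
Log2 normalized signal of the 3 Nmrk2 probes in gastrocnemius by diet, each point 1 array with its pool number, with the mean and SD of 3 pools and a separate vertical scale per panel. On 2 probes the UR pools are the highest (11.11 to 11.43 and 9.60 to 9.83), and ND pool 2 is the lowest on these and the highest of the ND and HFD arrays on the third.

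Nnmt, which methylates nicotinamide, fell with UR in the liver on all 3 of its probes, passed no test in WAT and, in muscle, rose against the ND with the HFD and with UR. In the liver ILMN_2885277 gave 13.65, 13.92 and 13.46 with the ND, 13.32, 13.06 and 13.54 with the HFD and 12.91, 12.49 and 12.53 with UR, with every UR pool below every other pool and the ND and HFD pools overlapping. It fell by 0.66 against the HFD (standard error 0.14, adjusted p = 0.00135) and by 1.03 against the ND (standard error 0.14, adjusted p = 3.07e-05), to a level 2.05-fold lower. The other 2 probes fell by 0.58 and 0.67 against the HFD (adjusted p = 0.00290 and 0.000710) and by 0.96 and 1.36 against the ND (adjusted p = 5.14e-05 and 1.31e-06). With the HFD only the dimmest, ILMN_2665411, fell, by 0.68 (standard error 0.13, adjusted p = 0.00200), from 10.95, 11.01 and 10.77 to 10.25, 10.01 and 10.42. The other 2 gave -0.37 and -0.37 (adjusted p = 0.0694 and 0.0628) and passed the test without ND pool 3, HFD pool 3 or UR pool 1 (-0.48 to -0.37) for ILMN_2885277 and ND pool 3, HFD pool 3 or UR pool 1 (-0.49 to -0.37) for ILMN_2544305, and with median scaling (-0.439 and -0.442). Median scaling ended the UR call of ILMN_2544305 against the HFD (-0.307).

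In WAT the brightest probe ran from 13.46 to 13.95 over the 9 pools, with ND pools at both ends, and UR against the HFD was -0.10 (95% confidence interval -0.30 to 0.11). Without ND pool 2 all 3 probes fell with UR against the ND, by 0.17, 0.30 and 0.29 for ILMN_2885277, ILMN_2544305 and ILMN_2665411. In muscle ILMN_2885277 gave 7.79, 7.94 and 7.84 with the ND, 8.26, 8.15 and 8.09 with the HFD and 8.25, 8.35 and 8.20 with UR. All ND pools lay below all others, and it rose by 0.31 with the HFD (standard error 0.066, adjusted p = 0.00822) and by 0.41 with UR against the ND (standard error 0.066, adjusted p = 0.00108). UR against the HFD was 0.10 in muscle (95% confidence interval -0.039 to 0.24) and did not pass. With median scaling the HFD change was 0.202 and did not pass. ILMN_2544305 rose by 0.28 with UR against the ND (adjusted p = 0.0203), lost without ND pools 1 or 2 or UR pools 2 or 3 (0.24 to 0.28), and gave 0.20 with the HFD (adjusted p = 0.0830), past the test without ND pool 3 (0.27). The summed level of 5 adipocyte markers in muscle lay at 975 to 1141 (ND), 1180 to 1339 (HFD) and 1228 to 2177 (UR), with 2, 2 and 3 of the 5 detected on all arrays, and their part in the muscle values was not tested.

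The UR effect on ILMN_2885277 was lower in the liver than in WAT, with a difference of -0.48 (standard error 0.17, adjusted p = 0.0195), lost without liver HFD pool 3 or liver UR pools 2 or 3 (-0.42 to -0.37) and with median scaling (-0.318), and lower than in muscle, with a difference of -0.71 (standard error 0.17, adjusted p = 0.00126). The HFD effect was lower in the liver than in muscle as well, with a difference of -0.70 (standard error 0.17, adjusted p = 0.00336).

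**Figure D4:**
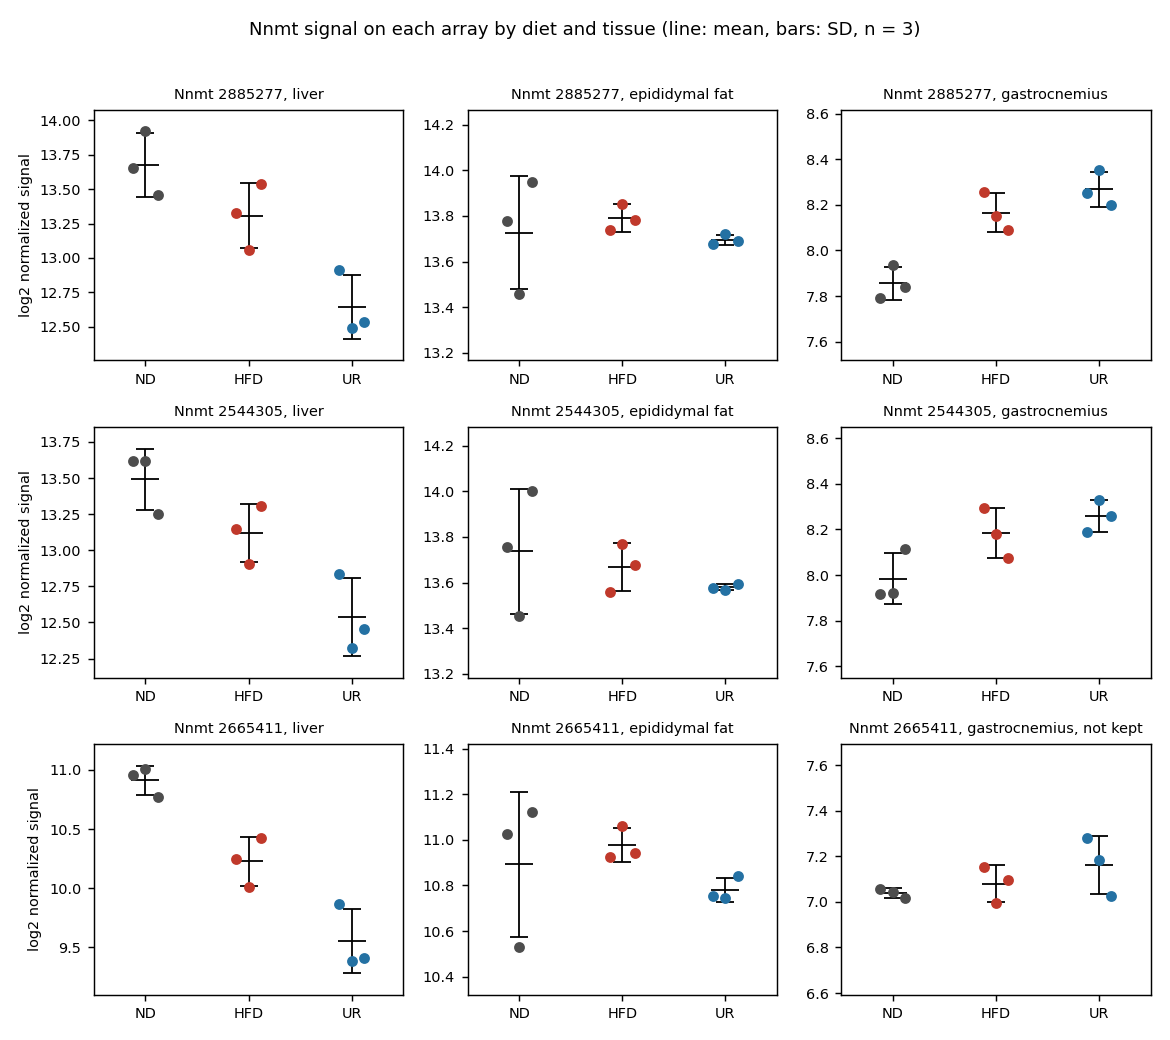
Log2 normalized signal of the 3 Nnmt probes (rows) on each array by diet in the liver, epididymal fat and gastrocnemius, with the mean and SD of 3 pools and a separate vertical scale per panel. The UR pools are the lowest in the liver on each probe (12.49 to 12.91 on the top row) and the ND pools the lowest in gastrocnemius on the top row (7.79 to 7.94), where the third probe was not detected on any array.

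Sirt1, the nuclear deacetylase, fell with the HFD in all 3 tissues, while UR against the HFD passed no test in any of them. In the liver its 1 probe, ILMN_2643159, gave 9.51, 9.76 and 9.67 with the ND, 9.39, 9.36 and 9.43 with the HFD and 9.37, 9.56 and 9.27 with UR. In WAT it gave 10.33, 10.54 and 10.48 with the ND, 10.15, 10.03 and 10.17 with the HFD and 10.08, 10.31 and 10.23 with UR. In muscle the same diets gave 9.49, 9.55 and 9.43, then 9.18, 9.29 and 9.25, then 9.15, 9.23 and 9.24. Every ND pool lay above every HFD pool of its tissue, and every UR pool lay below every ND pool of its tissue but for UR pool 2 of the liver, which was above ND pool 1. With the HFD it fell by 0.26 in the liver (standard error 0.084, adjusted p = 0.0416), 0.34 in WAT (standard error 0.078, adjusted p = 0.00425) and 0.25 in muscle (standard error 0.059, adjusted p = 0.0134). UR against the HFD was 0.0093 in the liver (95% confidence interval -0.17 to 0.19), 0.092 in WAT (-0.077 to 0.26) and -0.037 in muscle (-0.16 to 0.088). With UR against the ND it fell by 0.25, 0.24 and 0.29 (adjusted p = 0.0222, 0.0211 and 0.00486).

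The HFD effect on Sirt1 was not shown to differ between tissues: the liver less WAT was 0.086 (95% confidence interval -0.13 to 0.30), the liver less muscle 0.0028 (95% confidence interval -0.21 to 0.22) and WAT less muscle -0.084 (95% confidence interval -0.30 to 0.13). In the liver the HFD call was lost without ND pools 2 or 3, HFD pools 1, 2 or 3 or UR pool 1 (-0.27 to -0.20), and the call of UR against the ND without ND pools 2 or 3 or UR pools 1 or 3 (-0.23 to -0.18). The liver HFD call was also lost with no detection filter and with array weights, which ended that of UR against the ND too (-0.209). Rank products called Sirt1 in none of the 3 tissues for either comparison. With median scaling the liver HFD change was -0.173 and did not pass, UR against the ND turned to 0.069, and UR against the HFD became 0.243 and passed. In WAT the HFD call held without each pool and that of UR against the ND was lost without ND pools 2 or 3 or UR pool 1 (-0.23 to -0.18). In muscle the HFD call was lost without ND pool 2 or HFD pool 1 (-0.22).

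Sirt3, the main mitochondrial deacetylase, rose with UR in the liver and fell with the HFD in WAT. In the liver its 1 probe, ILMN_2737480, gave 12.98, 12.74 and 12.78 with the ND, 12.87, 12.83 and 12.82 with the HFD and 13.06, 13.10 and 13.13 with UR, the UR pools above all others, a rise of 0.25 against the HFD (standard error 0.066, adjusted p = 0.00573) and of 0.26 against the ND (standard error 0.066, adjusted p = 0.00402). Both rises of this probe lost their call with rank products (adjusted p = 0.693 and 0.794). In WAT it gave 11.14, 10.91 and 10.98 with the ND, 10.83, 10.68 and 10.84 with the HFD and 10.86, 10.76 and 10.75 with UR. It fell by 0.23 with the HFD (standard error 0.074, adjusted p = 0.0265), lost without ND pool 1 or HFD pool 2 (-0.18 to -0.16), and by 0.22 with UR against the ND (standard error 0.074, adjusted p = 0.0285), lost without ND pool 1 or UR pools 2 or 3 (-0.20 to -0.15). Summed macrophage markers in WAT lay at 5420 to 6122 (ND), 14668 to 18030 (HFD) and 15808 to 19800 (UR), with 3 of the 4 detected on every ND array and all 4 detected on every HFD and UR array, and their part in the falls of Sirt1, Sirt3 and Sirt5 in WAT was not tested. In muscle UR against the HFD was -0.088 and the HFD against the ND 0.039, neither past the test. The UR effect was larger in the liver than in muscle by 0.30 (standard error 0.10, adjusted p = 0.0170), lost without muscle HFD pool 1 or muscle UR pool 2 (0.24 to 0.25), while the liver less WAT was 0.20 (standard error 0.10, adjusted p = 0.0892) and passed the test without WAT HFD pool 2 (0.26) and with median scaling (0.483). The HFD effect was lower in WAT than in muscle, with a difference of -0.28 (standard error 0.10, adjusted p = 0.0343), lost without WAT ND pool 1, WAT HFD pool 2, muscle ND pools 1 or 2 or muscle HFD pool 1 (-0.26 to -0.21).

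Sirt5, a mitochondrial enzyme that removes succinyl and malonyl groups from lysine, gave unlike values on its 2 probes in the liver. The brighter, ILMN_2711045, gave 9.90, 9.69 and 9.72 with the ND, 10.02, 10.07 and 9.95 with the HFD and 10.02, 10.10 and 9.91 with UR, so that HFD and UR pools overlapped above the ND. The dimmer, ILMN_2707079, gave 8.94, 8.80 and 8.94 with the ND, 9.06, 9.02 and 8.99 with the HFD and 9.63, 9.58 and 9.49 with UR, with the UR pools above all others. UR against the HFD was -0.0034 on the first (95% confidence interval -0.17 to 0.16, and 0.259, past the test, with median scaling), while the second rose by 0.54 (standard error 0.066, adjusted p = 1.74e-05). With the HFD the first rose by 0.24 (standard error 0.075, adjusted p = 0.0323), lost without ND pools 2 or 3 or HFD pools 1 or 2 (0.20 to 0.24), and the second gave 0.13 (adjusted p = 0.171). Both rose with UR against the ND, by 0.24 and 0.67 (adjusted p = 0.0146 and 1.82e-06), the first lost without ND pool 2 or UR pool 2 (0.19 to 0.20). Rank products ended each of these liver calls of Sirt5.

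In WAT the brighter Sirt5 probe gave 9.63, 9.57 and 9.67 with the ND, 9.41, 9.33 and 9.54 with the HFD and 9.42, 9.37 and 9.37 with UR. It fell by 0.19 with the HFD (standard error 0.066, adjusted p = 0.0350), lost without ND pools 1 or 3 or HFD pools 1 or 2 (-0.19 to -0.14), and by 0.24 with UR against the ND (adjusted p = 0.0104). The dimmer probe gave -0.16 (adjusted p = 0.0684) and fell by 0.20 (adjusted p = 0.0203), the latter lost without UR pool 2 (-0.14). In muscle the brighter probe gave 9.97, 9.90 and 9.84 with the ND, 9.98, 10.14 and 10.10 with the HFD and 10.24, 10.08 and 10.09 with UR, and rose by 0.24 with UR against the ND (standard error 0.064, adjusted p = 0.0217), lost without ND pools 2 or 3 or UR pool 1 (0.19 to 0.24) and with median scaling (0.073). The dimmer gave 0.19 (adjusted p = 0.0551), past the test without ND pool 1 or HFD pool 2 (0.19 to 0.23). The HFD effect on the brighter probe was larger in the liver than in WAT by 0.43 (standard error 0.10, adjusted p = 0.00111) and lower in WAT than in muscle, with a difference of -0.37 (standard error 0.10, adjusted p = 0.00427), the latter not past the test with median scaling (-0.211). The UR effect on the dimmer probe was larger in the liver than in WAT by 0.56 (standard error 0.085, adjusted p = 4.93e-06). It was larger than in muscle by 0.42 (standard error 0.085, adjusted p = 0.000233). On the brighter probe these UR differences were 0.040 and -0.072 and did not pass.

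**Figure D5:**
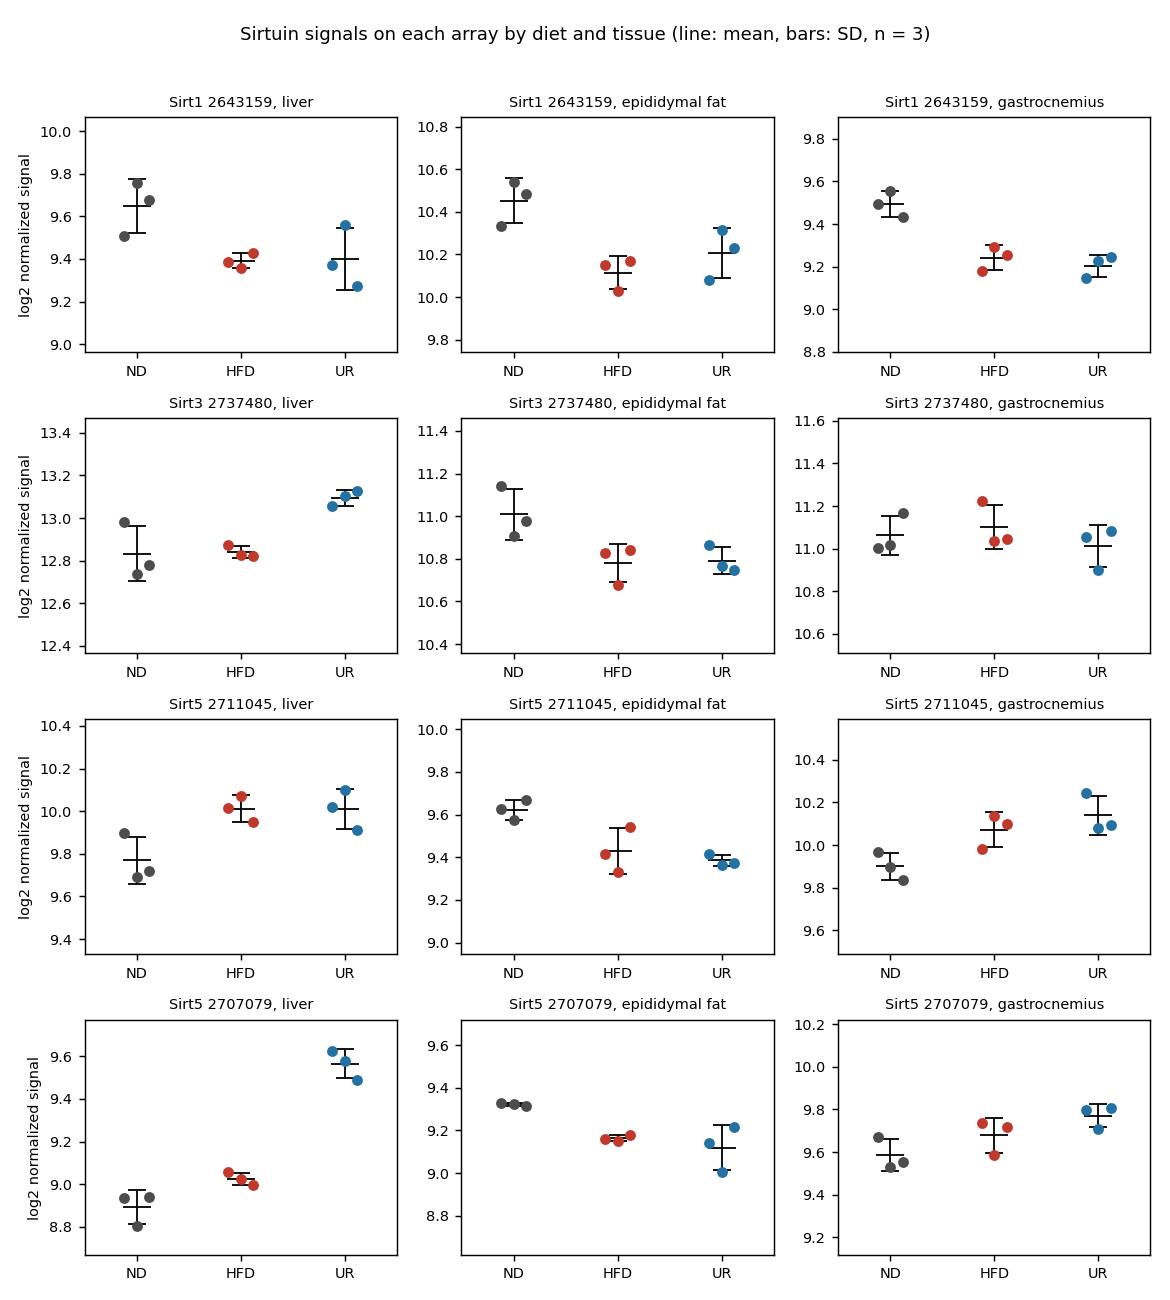
Log2 normalized signal of the Sirt1, Sirt3 and Sirt5 probes (rows) on each array by diet in the liver, epididymal fat and gastrocnemius, with the mean and SD of 3 pools and a separate vertical scale per panel. In the top row the HFD pools lie below the ND pools in each tissue, and in the last row the liver UR pools (9.49 to 9.63) lie above all ND and HFD pools.

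With the ND, Nampt, Nmrk2, Nmnat3 and Sirt5 were highest in muscle, Sirt3, Nmrk1 and Nadsyn1 in the liver, and Nnmt in WAT and the liver. With the ND and all 27 arrays normalized together, 13 of 15 probes differed between the liver and WAT (81.9% of all probes), 17 of 18 between the liver and muscle (84.6%) and 14 of 18 between WAT and muscle (81%). With median scaling the median difference over all these probes moved from -0.026 to -0.25 for the liver less WAT and from 0.035 to 0.31 for WAT less muscle. Nampt stood at 10.64 ± 0.071 (mean ± SD of log2 signal) in muscle, 9.16 ± 0.093 in WAT and 7.65 ± 0.051 in the liver, where it was not detected, so that muscle was at least 7.44-fold and WAT at least 2.68-fold above the liver. Nmrk2 was at 10.94 ± 0.43 in muscle on ILMN_2724880, at least 9.18-fold above the liver and 10.7-fold above WAT. The bounds were 6.76 and 7.88 on ILMN_1244715 and 3.41 and 3.98 on ILMN_2727022.

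Nnmt had the opposite order to Nmrk2: 13.57 ± 0.29 in WAT, 13.48 ± 0.21 in the liver and 8.33 ± 0.088 in muscle on ILMN_2885277, with 37.9-fold and 35.6-fold more in WAT and in the liver than in muscle. WAT and the liver were not shown to differ on this probe, while on ILMN_2544305 the liver was lower by 0.27 (adjusted p = 0.0479), a difference that turned to 0.032 with median scaling and lost its call without liver ND pool 3, liver HFD pool 1, liver UR pool 3, WAT ND pools 1 or 3, WAT HFD pool 3, WAT UR pools 1, 2 or 3, muscle ND pools 1 or 2, muscle HFD pool 2 or muscle UR pools 1, 2 or 3 (-0.27 to -0.12) and with the pool number as a block within each diet (-0.27). On the dimmest, ILMN_2665411, the liver was instead higher, by 0.57 (adjusted p = 0.000134), which median scaling brought to 0.215 with no call, so the 3 probes give no single order of WAT and the liver. Sirt3 was at 12.74 ± 0.11 in the liver, 11.63 ± 0.087 in muscle and 10.52 ± 0.12 in WAT, and all neighbours differed. Nmrk1 was highest in the liver, 9.92 ± 0.013 against 8.20 ± 0.024 in WAT and 8.05 ± 0.19 in muscle, of which the last 2 were not shown to differ (adjusted p = 0.112, but past the test without muscle ND pool 2 (0.21) and with median scaling, at 0.536). Nadsyn1 on ILMN_2592767 ran from 8.25 ± 0.13 in the liver over 7.70 ± 0.026 in WAT to 7.37 ± 0.023 in muscle, where it was not detected, at least 1.47-fold between the liver and muscle.

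Sirt5 was highest in muscle, 10.50 ± 0.067 on ILMN_2711045 against 9.90 ± 0.11 in the liver and 9.11 ± 0.048 in WAT, and all neighbours differed, although on ILMN_2707079 the difference of the liver from WAT (0.25) turned to -0.227 with median scaling. Sirt1 stood at 10.09 ± 0.062 in muscle, 9.95 ± 0.11 in WAT and 9.78 ± 0.12 in the liver. Muscle and WAT were not shown to differ (WAT less muscle -0.14, adjusted p = 0.0861, turned to 0.41 and past the test with median scaling), and the liver was lower than WAT by 0.17 (adjusted p = 0.0399), lost without liver ND pools 1 or 3 or WAT ND pools 2 or 3 (-0.18 to -0.10). Nmnat1 was detected with the ND in muscle alone (7.76 ± 0.10), at least 1.18-fold above WAT. Its liver and muscle levels were not shown to differ (liver less muscle -0.14, adjusted p = 0.0652). That difference passed the test without liver ND pool 3 (-0.20) or muscle ND pool 2 (-0.18). Nmnat3 on ILMN_1223343 was at 8.11 ± 0.10 in muscle, 7.58 ± 0.077 in WAT with 2 of 3 arrays detected, and not detected in the liver, at least 1.29-fold below muscle. On ILMN_2616151 WAT less muscle was -0.17 (adjusted p = 0.0519) and passed the test with the pool number as a block within each diet.

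In the wider pathway, 9 genes of the kynurenine route from tryptophan were listed. In the liver 7 were kept, of which 3 rose and 0 fell with UR against the HFD, where 21.9% of all kept probes rose and 33.3% fell (median log2 change -0.015 against -0.070 over all probes). Kmo, the mono-oxygenase of kynurenine, rose by 2.10 (standard error 0.073, adjusted p = 1.07e-09), Tdo2, which opens the tryptophan ring, by 1.04 (standard error 0.090, adjusted p = 7.58e-07) and Kynu, the kynureninase, by 0.45 (standard error 0.10, adjusted p = 0.00263). Qprt, whose product feeds Nadsyn1's branch, gave -0.10 (standard error 0.062, adjusted p = 0.206). With the HFD against the ND, Ido2 rose by 0.20 and Qprt fell by 0.18 (adjusted p = 0.0497 for both). In WAT 3 genes of this route were kept and in muscle 2, with changes of 0.094 to 0.25 and -0.059 to 0.10 with UR against the HFD that did not pass the test.

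Among 6 other salvage and transport genes, 3 were kept in WAT and 2 each in muscle and the liver. Nt5e, an ectoenzyme that releases nucleosides, fell by 0.36 with UR in the liver (standard error 0.084, adjusted p = 0.00264) and by 0.41 with the HFD in WAT (standard error 0.10, adjusted p = 0.00456). Naprt, the nicotinic acid counterpart of Nampt, fell with UR against the ND in the liver, by 0.42 (standard error 0.086, adjusted p = 0.00101), and in WAT, by 0.33 (standard error 0.073, adjusted p = 0.00257). Of the 3 genes of NADP, Nadk2, the mitochondrial NAD kinase, rose by 0.30 with UR in the liver (standard error 0.062, adjusted p = 0.00127). Nadk fell by 0.21 with the HFD in WAT (standard error 0.057, adjusted p = 0.0115). The RNA signal of Nnt, the gene of the mitochondrial transhydrogenase, fell by 0.37 with the HFD in the liver (standard error 0.10, adjusted p = 0.0124). The arrays do not show whether a working enzyme was made from it. Aox3, an aldehyde oxidase that acts on nicotinamide metabolites, rose by 0.58 with the HFD in the liver (standard error 0.087, adjusted p = 0.000415) and fell by 0.36 with UR against the HFD (standard error 0.087, adjusted p = 0.00378), 2 comparisons that share the HFD arrays.

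Of 12 NAD-consuming enzymes, 9 were kept in the liver, where 1 rose and 3 fell with UR against the HFD (all kept probes 21.9% and 33.3%, medians -0.15 and -0.070). Tnks, a poly-ADP-ribose polymerase of telomeres, rose by 0.77 (standard error 0.066, adjusted p = 5.96e-07), while Parp14, Parp1 and Parp3 fell by 0.49, 0.29 and 0.24 (adjusted p = 0.000696, 0.00191 and 0.0174). In WAT 1 rose (Parp2, 0.21) and 1 fell (Tnks, -0.22) of 9 (7.54% of all kept probes changed), and in muscle 1 rose (Parp4, 0.19) and 0 fell of 8 (22%). Of the other 4 sirtuins 3 were kept in each tissue. With UR against the HFD, Sirt4 of the mitochondria rose by 0.25 in the liver (standard error 0.081, adjusted p = 0.0204) and Sirt7 of the nucleolus by 0.27 in WAT (standard error 0.065, adjusted p = 0.0289), whereas in muscle the 3 gave 0.062 to 0.16 and did not pass. Rps19bp1, which binds and activates Sirt1, fell by 0.23 with UR in the liver (standard error 0.065, adjusted p = 0.00834) and by 0.25 with the HFD in WAT (standard error 0.056, adjusted p = 0.00362).

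Of 9 listed clock genes 8 were kept in each tissue, and some changed in all 3. With UR against the HFD, 5 rose and 2 fell in the liver (55.1% of all kept probes changed, medians 0.59 and -0.070 over all probes), 3 rose and 1 fell in WAT (7.54%, medians 0.36 and 0.0046) and 4 rose and 1 fell in muscle (22%, medians 0.55 and -0.018). In the liver Nr1d2, a nuclear receptor that represses clock targets, rose by 1.73 (standard error 0.073, adjusted p = 1.86e-09), the repressor gene Per2 by 0.80 (standard error 0.16, adjusted p = 0.000783) and its partner Cry2 by 0.37 (standard error 0.076, adjusted p = 0.00117), whereas Clock fell by 0.81 (standard error 0.074, adjusted p = 1.21e-06). In WAT the output gene Dbp rose by 1.53 (standard error 0.12, adjusted p = 2.02e-05) and Arntl, the partner of Clock, fell by 0.76 (standard error 0.074, adjusted p = 0.000193). In muscle Dbp rose by 2.03 (standard error 0.11, adjusted p = 5.51e-08), Per2 by 1.43 (standard error 0.17, adjusted p = 0.000129) and Nr1d2 by 0.84 (standard error 0.080, adjusted p = 2.04e-05), and Arntl fell by 0.66 (standard error 0.086, adjusted p = 0.000213). Nampt rose in the liver and muscle and fell in WAT in the same comparison, and whether the clock genes had a part in it was not tested.

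The genes whose log2 signal followed a member most closely over the 9 arrays of a tissue are given as a description, since the arrays share 3 diets. For Nampt in the liver they were Kmo (Pearson's r = 0.998 among 9783 other genes), Dld, Dazap2, Srp72 and Emc7 (0.997), with UR changes of 2.10, 1.62, 1.63, 1.13 and 1.33. For Nmrk2 in muscle they were Sh2b1 (r = 0.981), Pdia3, Med11, the clock receptor Nr1d1 and Olfr1436 (0.957). For Nnmt in WAT, where no probe passed the test, they were Gpt (r = 0.936), Ankrd40, 2010003K11Rik, Eloc and Sec61b (0.909).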

How the data were processed

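Illumina MouseWG-6 v2 BeadChips carried biotin-labelled cRNA from pooled total RNA. The authors deposited unnormalized probe intensity with a detection p-value for each of 27 arrays, with no background correction applied here, and a table of normalized log2 values. In that table the muscle columns equalled the WAT columns in all 45281 rows, so these 9 columns were not used, and the deposited log2 values of the liver and WAT served as an alternative. A genome build for the probes is not given in the sources used. Of 45281 probes 34903 were annotated, 34885 with 1 symbol and 18 with several, and 34807 symbols were matched by identifier.

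The 9 arrays of each tissue were quantile-normalized together and put on the log2 scale. Probes were kept if every array of at least 1 diet had a detection p under 0.05. Diets were compared by limma 3.58.1 in R 4.3.3 (lmFit over the 9 arrays, eBayes with an intensity trend), with Benjamini-Hochberg adjustment over all kept probes and 95% confidence intervals. Differences between tissues came from 1 model over the 27 arrays normalized together, adjusted over the probes kept in both tissues for effects and in either for levels. Pools of 1 number deviated together between the liver and WAT (r 0.138 to 0.191) and between WAT and muscle (0.100 to 0.160) with the ND, the pairing being read from the data, as no label ties pools across tissues. The number of arrays limits the precision. The methods name rank products, which were run as an alternative with 100 permutations, since limma gives each probe a standard error. Other alternatives changed the background correction, scaling, filter, variance model, weights, arrays and block, and left out each pool in turn. The fits were also run on simulated data in which few probes changed, as many up as down. That run does not show how the scaling behaves where many probes change, as with UR in the liver.

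The 19 probes of the 10 genes were followed, with every kept probe of the diet comparisons counted, and a gene is summarised by its brightest kept probe. Of each other list up to 4 genes of smallest adjusted p per tissue and comparison were named. Members and lists were chosen with earlier results of these data known. Promoter sequences are from RefSeq (GRCm38.p6). Fold bounds set the dimmer group, on each array, to the higher of its own signal and the lowest signal of a detected probe.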

Additional observations from a re-analysis of the deposited data

Results flagged for a closer look

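Diet effects were compared between tissues by the test of the difference itself, on the brightest probe of each gene. The pairs were the liver less WAT, the liver less muscle and WAT less muscle. In that order, the UR effect differed for 4 of 7 genes (48.4% of all probes), 5 of 7 (42%) and 1 of 6 (20.3%). The HFD effect differed for 2 of 7 (29.2%), 2 of 7 (25.5%) and 3 of 6 (30.1%). For UR against the HFD, the log2 change in the liver less that in WAT was 2.23 for Nampt, 0.44 for Nmrk1, 0.35 for Nadsyn1 and -0.48 for Nnmt. The change in the liver less that in muscle was 1.40 for Nampt, 0.57 for Nmrk1, 0.41 for Nmnat1, 0.30 for Sirt3 and -0.71 for Nnmt. The Nmnat1 probe was detected in the liver with UR alone, so its liver effect is against background. For WAT less muscle, the value for Nampt was -0.84.

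For the HFD against the ND, the liver less WAT was 0.31 for Nampt and 0.43 for Sirt5, and the liver less muscle was 0.69 for Nampt and -0.70 for Nnmt, where the Nampt probe was not detected in the liver with the ND. WAT less muscle was 0.39 for Nampt, -0.28 for Sirt3 and -0.37 for Sirt5. With median scaling the HFD differences of Nampt between the liver and WAT and of Sirt3 and Sirt5 between WAT and muscle, and the UR difference of Nnmt between the liver and WAT, no longer passed the test. The UR and HFD effects of a tissue share the HFD arrays.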

How the results depend on the processing

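Of the counts of changed member probes, each under 1 alternative, 427 stayed within 1.5 times the value reported and 47 did not. With rank products the counts fell to 3 (UR against the HFD), 1 (HFD against the ND) and 4 (UR against the ND) in the liver, 0, 0 and 0 in WAT, and 3, 2 and 3 in muscle. With no detection filter they were 1 for the HFD against the ND in the liver, and 1 for UR against the HFD and 2 for the HFD against the ND in WAT, and for the HFD effect 2 for the liver less WAT and 3 for WAT less muscle. Array weights gave 2 for the HFD against the ND in the liver. In WAT the 27 arrays normalized together gave 1 for UR against the HFD, 1 probe per gene gave 1 (of 2 genes), and the 2 diets alone gave 2 for the HFD against the ND. Median scaling gave 2 for the HFD effect of WAT less muscle. Without 1 pool, the counts for UR against the HFD, the HFD against the ND and UR against the ND ran from 10 to 11, 1 to 5 and 10 to 12 in the liver, 0 to 3, 2 to 4 and 5 to 8 in WAT, and 2 to 6, 2 to 5 and 4 to 7 in muscle. For the liver less WAT, the liver less muscle and WAT less muscle they ran from 5 to 9, 7 to 8 and 2 to 2 for the UR effect, 2 to 6, 3 to 5 and 3 to 7 for the HFD effect, and 11 to 13, 17 to 18 and 14 to 15 for ND levels. Median scaling turned 5 values: UR against the HFD in the liver for Sirt5 ILMN_2711045 (0.26), UR against the ND in the liver for Sirt1 (0.069), and the ND levels of Nnmt ILMN_2544305 (0.032) and Sirt5 ILMN_2707079 (-0.23) for the liver less WAT and of Sirt1 (0.41) for WAT less muscle. Of the values of single probes, 5613 kept their direction and call, 268 lost the call, 67 gained it and 69 changed sign with no call under either setting. The cause of these changes was not tested.

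The pool number as a block (replicate block) left 1 probe changed for UR against the HFD in WAT, ending the calls of Nampt ILMN_1232209 and Nadsyn1 ILMN_2592767. It also ended those of Nmnat3 ILMN_1223343 and Nmrk2 ILMN_2724880 for UR against the HFD in muscle, and gave calls to Sirt5 ILMN_2707079 for UR against the ND in muscle, to Sirt3 for the HFD effect of the liver less WAT (0.25) and to Nmnat3 ILMN_2616151 for the ND level of WAT less muscle. As a block within each diet it kept the last 2 and ended the ND call of Nnmt ILMN_2544305. It changed no other call. For the comparisons between tissues, the blocks and leaving out a pool were chosen after seeing the data. Across diets pools of 1 number share only that number, and their deviations correlated by -0.15 to 0.20 in the liver. Each pair of diets was compared at each pool number, which gave 9 pairs per tissue. The own number correlated best in 4 of 9 pairs in the liver, 3 of 9 in WAT and 3 of 9 in muscle. Across tissues it did so in 9 of 9 pairs with the ND (r 0.091 to 0.191), 6 with the HFD (-0.13 to 0.071) and 2 with UR (-0.11 to 0.040). Probes near the detection limit are bounded by the background signal.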
